A study of Mus with 6 samples.

Results

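DNA replication genes were followed in CD4+ T cells that had been activated in culture with or without neutralization of VEGF-B. The group held 54 genes, given as a list of symbols and found in the deposited table by symbol, of 10995 protein-coding genes listed there. All 54 were found, on 17 chromosomes. Wild-type (WT) naive CD4+ T cells from mouse spleen were stimulated for 3 days through CD3 (5 μg/mL) and CD28 (2 μg/mL) with IL-2 (100 U/mL). They received an antibody that neutralizes VEGF-B, or normal goat IgG as the control, each at 1 μg/mL. There were 3 RNA-Seq libraries per treatment, numbered 1 to 3 in the labels. Whether they came from separate mice is not stated, so the p values measure the spread between these libraries, which may be technical.

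A cell that is about to divide copies its genome once. The origin recognition complex, with Cdc6 and Cdt1, loads the MCM2-7 helicase onto origins in G1, and geminin, the product of Gmnn, later inhibits Cdt1 so that origins are not loaded again. In S phase the loaded helicase is activated by the Cdc7 kinase, Mcm10, Cdc45 and the GINS complex, and polymerases, a sliding clamp and its loaders then copy both strands. Naive T cells rest outside the cycle, and stimulation through the T cell receptor induces many of these genes, most of them targets of E2F transcription factors. The comparison asks how the level of these mRNAs differed when VEGF-B was neutralized during activation.

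The values were FPKM, fragments scaled to the length of the transcript and to the size of the library, so that levels of different genes can be compared per length. The log2 fold changes given are differences of log2(FPKM + 1) between anti–VEGF-B and IgG from limma, which understate the change of genes with low FPKM. Calls were made at an adjusted p under 0.05, by the Benjamini-Hochberg method over the 8816 genes whose mean over the 6 libraries reached 1 FPKM. The FPKM of all genes summed to between 260058 and 276622 per library, the number of reads per library was unknown, and the median log2 fold change of all tested genes was -0.15. Of 10 CD4 T cell markers listed, 9 were found, and they summed to 562 to 608 FPKM with anti–VEGF-B and 598 to 716 with IgG. Among them, Cd4 was at 64.0 to 74.6 FPKM over the 6 libraries. Cd3e was at 9.60 to 12.9 FPKM with anti–VEGF-B and 14.25 to 18.6 with IgG, and Il2ra at 51.8 to 65.7 and 94.9 to 150. Cd3d was not lower, at 101 to 119 and 100 to 106 FPKM. Of the CD8 T cell markers, Cd8a was at 0.182 FPKM or less and Cd8b1 at 2.27 to 4.51 FPKM. Of 8 B cell markers 1 was found in the table, Cd79b, with 0.665 to 1.34 FPKM. The 5 macrophage or dendritic cell markers in the table, of 10 listed, summed to 11.5 to 13.1 FPKM with anti–VEGF-B, 13.3 and 13.0 in IgG replicates 1 and 2, and 30.1 in IgG replicate 3.

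Most of the replication genes were lower when VEGF-B was neutralized, and so were most genes of any kind. The log2 fold change was negative in 37 of the 44 tested members and in 71.2% of all tested genes. Of 44 members that passed the filter, 23 were called lower (52.3%, where 23.8% of all tested genes were called lower) and 2 were called higher (Ccne2 and Prim2, where 4.87% of all tested genes were called higher), while 19 were not called. The 23 falls ran from -0.97 for Fen1 to -0.27 for Pcna on the log2 scale, which left 36.2% to 82.6% of the mean FPKM of the IgG libraries. Over the 44 members the median log2 fold change was -0.35. Of the 39 members with a mean of 1 to 10 FPKM, 21 were called lower (53.8%), where 27.2% of all genes in that range were. Among the 23, Rfc5 and Chaf1a passed the filter only through the IgG libraries, with means under 1 FPKM under anti–VEGF-B (0.785 and 0.910). The same held for Cdc6 and Pole2 (0.744 and 0.875), which were not called. A further 10 members had a mean under 1 FPKM and did not pass the filter. With no filter on level, 27 of all 54 members were called lower (50.0%, where 20.6% of all listed genes were) and 2 higher.

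In 39 of the 54 members (72.2%) every anti–VEGF-B library lay under every IgG library, a separation found for 38.4% of all listed genes. In 2 members, Ccne2 and Prim2, every anti–VEGF-B library lay above every IgG library, a separation found for 8.87% of all genes. For a single gene, such a separation of 3 against 3 gives p = 0.1 in a two-sided exact permutation test, the smallest it allows. The heat map of all members in every library shows the falls as a block over the 3 anti–VEGF-B libraries. IgG replicate 2 was the highest of the IgG libraries for 41 of the 54 members. Its median log2(FPKM + 1) over all tested genes was also the highest, at 3.01, against 2.85 in IgG replicate 1 and 2.89 in IgG replicate 3. Relative to this median, the mean of the members was -0.596, -0.612 and -0.663 in the IgG libraries in order. The lowest anti–VEGF-B library was replicate 3 for 24 members and replicate 2 for 22. Added up over the 54 members, the level was 248, 243 and 242 FPKM with anti–VEGF-B, against 303, 335 and 292 FPKM with IgG.

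**Figure D1:**
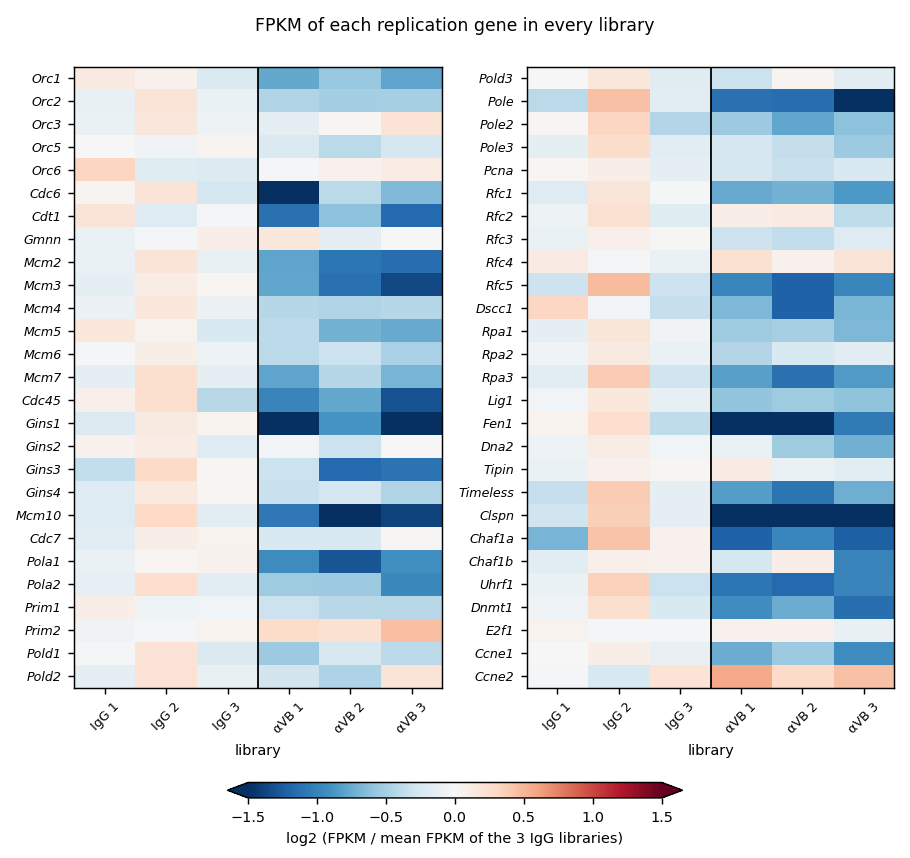
FPKM of the 54 DNA replication genes in the 3 IgG and 3 anti–VEGF-B (αVB) libraries, as the log2 ratio to the mean of the 3 IgG libraries of each gene (colour, limited to 1.5 in either direction). Most rows are blue in all 3 anti–VEGF-B libraries, Clspn is beyond the colour limit there, and Prim2 and Ccne2 are red.

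The scaling between libraries moved these counts. After median centring 15 of the 44 members were called lower (34.1%, against 9.15% of all tested genes), after cyclic loess normalization 13 (29.5%, against 10.6%) and after quantile normalization 12 (27.3%, against 10.4%). All genes called split into 2099 lower and 429 higher without such a step. Median centring turned this split to 807 and 1365, cyclic loess to 938 and 852, and quantile normalization to 913 and 880. Each of the 23 genes called lower kept a negative log2 fold change under the 3 scalings, whereas Gins2, Cdc7, Pold2, Pold3, Rfc2 and Tipin, all slightly negative and not called, turned positive, as did Rpa2 after quantile normalization and cyclic loess. A set of 11 of the 44 members was called lower under all of them, namely Cdt1, Mcm2, Mcm3, Cdc45, Rfc1, Rpa1, Rpa3, Lig1, Fen1, Uhrf1 and Dnmt1. Among all tested genes such a set can hold at most the 9.15% called lower after median centring. When variances were not moderated across genes, none of the 44 members was called, where 6 of all tested genes were called lower and 6 higher. The adjusted p of the 25 members called in the main fit then ran from 0.0696 to 0.129. Without anti–VEGF-B replicate 3, 11 members were called lower (25%, against 7.88% of all tested genes). Without IgG replicate 3, which had the highest sum of macrophage or dendritic cell markers, 22 were (50.0%, against 17.3%). Because the cells were sequenced in bulk, fewer cells replicating their DNA and less of these mRNAs per cell cannot be told apart.

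**Figure D2:**
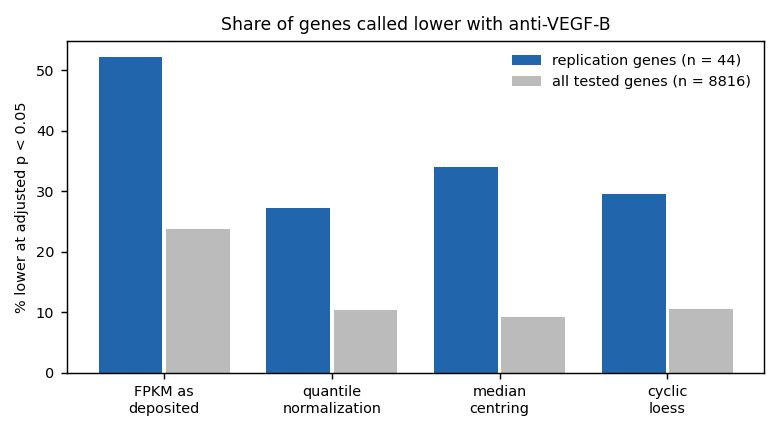
Percent of genes called lower with anti–VEGF-B at an adjusted p under 0.05 (y axis, from 0), for the 44 tested DNA replication genes (blue bars) and all 8816 tested genes (grey bars), with the FPKM as deposited and after each of 3 scalings between libraries. The share of replication genes fell from 52.3% to between 27.3% and 34.1%, and that of all genes from 23.8% to between 9.15% and 10.6%.

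**Figure D3:**
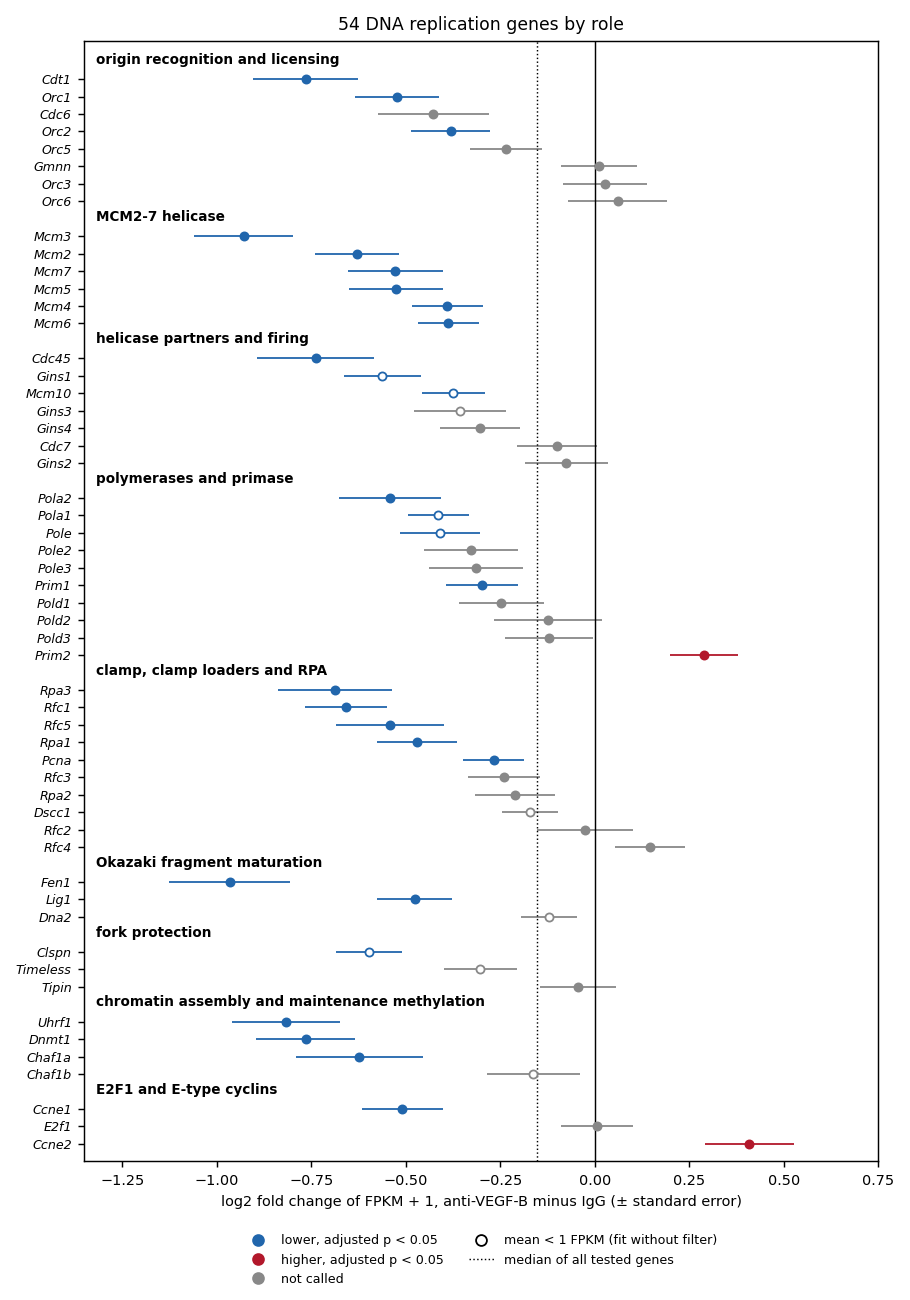
log2 fold change of FPKM + 1 between anti–VEGF-B and IgG for each of the 54 genes (x axis, points with standard errors), grouped by role. Blue points were called lower, red points higher and grey points not called, open points come from the fit without a filter on level, and the dotted line marks the median of all tested genes at -0.15.

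Among the origin recognition and licensing genes, the loading factor Cdt1 fell most. With anti–VEGF-B it had 2.64, 3.73 and 2.56 FPKM, against 6.53, 5.00 and 5.66 with IgG. The groups did not overlap, and anti–VEGF-B replicate 2 was the nearest to the IgG libraries. Cdt1 (chromosome 8 of GRCm38, 122568015 to 122573554) had a log2 fold change of -0.76 with a standard error of 0.139 (limma adjusted p = 0.00843). Orc1, the subunit of the origin recognition complex that comes and goes with the cell cycle, had 2.21, 2.53 and 2.18 FPKM with anti–VEGF-B. With IgG it had 4.12, 3.92 and 3.24 FPKM, above all the anti–VEGF-B values (log2 fold change -0.52, adjusted p = 0.0125). Orc2 also fell (log2 fold change -0.38, adjusted p = 0.0275).

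The other 5 genes of this role were not called, and they did not lie together. Cdc6, the partner of Cdt1 in loading, had a lower value in every anti–VEGF-B library and a log2 fold change of -0.43 (adjusted p = 0.0549), and Orc5 one of -0.23 (adjusted p = 0.0900). Orc3, Orc6 and Gmnn were at 102%, 104% and 101% of their IgG means, with log2 fold changes of 0.027, 0.061 and 0.011. Relative to the median of all genes these 3 were therefore on the higher side, by 0.18, 0.21 and 0.16. Gmnn was the most abundant gene of this role, with means of 11.1 ± 1.20 FPKM under anti–VEGF-B and 11.0 ± 0.776 under IgG (± SD over 3 libraries). Without anti–VEGF-B replicate 3 the adjusted p of Orc1 was 0.0506, and that of Orc2 was above 0.05 in 4 of the 6 fits without a library (0.0621 to 0.0860, without any of the anti–VEGF-B libraries or IgG replicate 2). Orc1 did not pass after quantile normalization (adjusted p = 0.0777) or cyclic loess (0.0681), nor Orc2 under any of the 3 scalings (0.133 to 0.194).

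The 6 genes of the MCM2-7 helicase, the ring that unwinds the parental DNA, were all called lower. In each of them the 3 anti–VEGF-B values lay under the 3 IgG values. Summed over the 6 subunits, the level was 46.2, 45.9 and 41.9 FPKM with anti–VEGF-B and 63.8, 71.1 and 61.7 with IgG. Mcm3 fell most, from 8.35, 9.96 and 9.44 FPKM with IgG to 5.39, 4.25 and 3.63 with anti–VEGF-B. This gene (chromosome 1 of GRCm38, 20802968 to 20820312) had the lowest adjusted p of all members (log2 fold change -0.93 with a standard error of 0.130, limma adjusted p = 0.00491). Mcm2 had 1.41, 1.15 and 1.11 FPKM with anti–VEGF-B against 2.27, 2.80 and 2.25 with IgG, which is 50.0% of the IgG mean (log2 fold change -0.63, adjusted p = 0.00768).

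Mcm7 had 3.90, 5.02 and 4.17 FPKM with anti–VEGF-B against 6.17, 7.96 and 6.13 with IgG. Mcm5 had 5.80, 4.65 and 4.53 against 8.48, 7.90 and 6.51 FPKM. Both had a log2 fold change of -0.53, and in Mcm5 the gap between the groups was narrow, between anti–VEGF-B replicate 1 and IgG replicate 3. Mcm4 had 7.65, 7.55 and 7.67 against 9.72, 11.5 and 9.72 FPKM, so that the anti–VEGF-B libraries lay close together (log2 fold change -0.39). Mcm6 was the most abundant of the 6, at 22.0, 23.3 and 20.8 against 28.8, 30.9 and 27.7 FPKM (log2 fold change -0.39, adjusted p = 0.0116). The order of mean levels with IgG (± SD, n = 3) was Mcm6 (29.1 ± 1.65), Mcm4 (10.3 ± 1.05), Mcm3 (9.25 ± 0.822), Mcm5 (7.63 ± 1.01), Mcm7 (6.75 ± 1.04) and Mcm2 (2.44 ± 0.312), and neighbours from Mcm4 to Mcm7 in this order differed by less than the sum of their SDs. The subunits are present in equal numbers in the ring, while their mRNAs differed in level. Without anti–VEGF-B replicate 3, the adjusted p was 0.0586 for Mcm4, 0.0637 for Mcm5 and 0.0613 for Mcm7, and that of Mcm7 was 0.0546 without anti–VEGF-B replicate 1. Mcm4 and Mcm5 did not pass under any of the 3 scalings (0.0595 to 0.0951), Mcm7 after quantile normalization (0.0502) and cyclic loess (0.0505), and Mcm6 after median centring (0.0919).

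**Figure D4:**
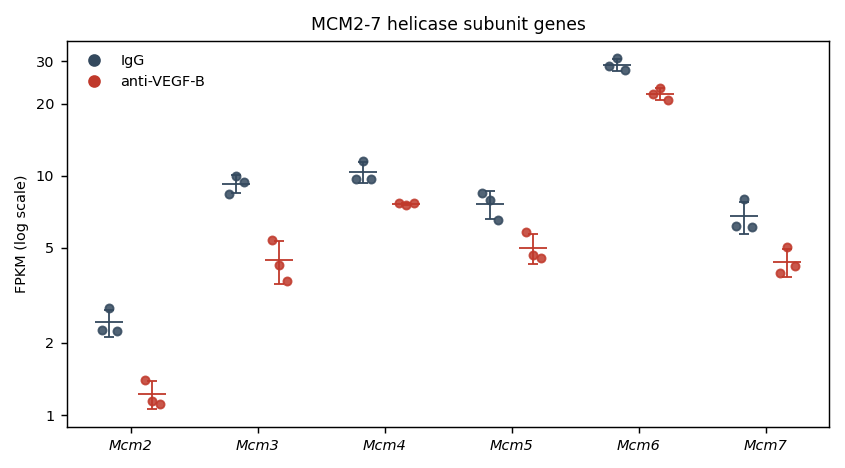
FPKM (log axis) of the 6 MCM2-7 genes in the IgG (dark) and anti–VEGF-B (red) libraries, with the mean of each group (horizontal mark) and its SD (bars, n = 3). In every gene the 3 anti–VEGF-B points lie under the 3 IgG points, with the widest gap in Mcm3 (4.42 against 9.25 FPKM on average) and Mcm2 (1.22 against 2.44).

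Of the helicase partners, Cdc45 had the largest fall among those tested. Its product joins MCM2-7 and GINS in the active helicase. Cdc45 (chromosome 16 of GRCm38, 18780447 to 18811987) had 2.10, 2.44 and 1.68 FPKM with anti–VEGF-B against 4.39, 4.97 and 3.13 with IgG. The lowest IgG library, replicate 3, lay above the highest anti–VEGF-B library (log2 fold change -0.74 with a standard error of 0.154, limma adjusted p = 0.0120). The 4 genes of the GINS complex did not share one pattern. Gins4 (8.83 FPKM with IgG) had 78.6% of its IgG mean (log2 fold change -0.30, adjusted p = 0.0573) and Gins2 (2.04 FPKM) had 92.4% (log2 fold change -0.076, adjusted p = 0.622). Gins1 and Gins3 had means under 1 FPKM, with 37.2% and 56.9% of the IgG mean left. In the fit with no filter Gins1 was called lower (log2 fold change -0.56, adjusted p = 0.0123) and Gins3 was not (-0.36, adjusted p = 0.0610). Gins3 did pass in limma without anti–VEGF-B replicate 1 (adjusted p = 0.0451) or IgG replicate 1 (0.0432). Mcm10, a scaffold that helps to activate the helicase, fell from 0.585 ± 0.117 to 0.222 ± 0.0565 FPKM (adjusted p = 0.0186 in the fit of all 6 libraries with no filter). Cdc7, the kinase that fires origins, was at 90.6% of its IgG mean (adjusted p = 0.490). Without anti–VEGF-B replicate 3 the adjusted p was 0.0509 for Gins1 and 0.0660 for Mcm10, and for Mcm10 it was 0.0554 without anti–VEGF-B replicate 2 and above 0.05 under each of the 3 scalings (0.0657 to 0.170).

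DNA polymerase alpha with primase starts each new strand, polymerase epsilon extends the leading strand and polymerase delta the lagging strand. In the alpha complex, Pola2 had 3.80, 3.76 and 2.81 FPKM with anti–VEGF-B against 5.03, 6.52 and 4.92 with IgG. The groups were apart, and IgG replicate 2 was the highest library (log2 fold change -0.54, adjusted p = 0.0199). Pola1, the catalytic subunit, was at 0.457 ± 0.0622 and 0.940 ± 0.0573 FPKM and was called lower in the fit with no filter (adjusted p = 0.0136).

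The subunits of primase, which lays down the RNA primer, moved in opposite directions. Prim1, the catalytic subunit, fell (log2 fold change -0.30, adjusted p = 0.0448). Prim2, the regulatory subunit, rose from 8.63, 8.85 and 9.29 FPKM with IgG to 10.8, 10.4 and 12.2 with anti–VEGF-B (log2 fold change 0.29, adjusted p = 0.0406). Neither call passed in any of the 6 fits without 1 library, where the adjusted p ran from 0.0587 to 0.137 for Prim1 and from 0.0555 to 0.156 for Prim2. The rise of Prim2 passed under all 3 scalings (adjusted p from 0.0110 to 0.0188), and the fall of Prim1 under none (0.485 to 0.680).

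Of the epsilon genes, the catalytic subunit gene Pole was low, at 40.2% of its IgG mean of 0.722 FPKM, and was called lower with no filter (log2 fold change -0.41, adjusted p = 0.0277). Pole2 and Pole3 were lower in every anti–VEGF-B library but were not called (adjusted p = 0.0759 and 0.0846). None of the 3 delta genes among the members was called in limma, at adjusted p of 0.124 for Pold1, 0.532 for Pold2 and 0.445 for Pold3, and none of them had an unadjusted p under 0.05. They had 76.5%, 89.9% and 90.9% of their IgG means. Pola2 was not called without anti–VEGF-B replicate 3 (0.0728) or IgG replicate 2 (0.0523), or after quantile normalization (0.0568) and cyclic loess (0.0595). Pole did not pass without IgG replicate 2 (0.0558) or any anti–VEGF-B library (0.0565 to 0.0962), Pola1 without anti–VEGF-B replicate 3 (0.05005), and neither under the 3 scalings (0.0668 to 0.139).

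Pcna, the sliding clamp that holds polymerases on DNA, was the most abundant member. Its mean was 40.7 ± 1.42 FPKM under anti–VEGF-B and 49.2 ± 3.96 under IgG, the smallest fall among the called members (log2 fold change -0.27, adjusted p = 0.0365). The RefSeq gene table lists the pseudogenes Pcna-ps1 and Pcna-ps2, between which and Pcna reads could have been split, so that its value is uncertain. The clamp is opened and closed by replication factor C, of which Rfc1 is the large subunit. Rfc1 had 4.63, 4.80 and 4.31 FPKM with anti–VEGF-B against 6.84, 8.90 and 7.76 with IgG, with no overlap. Rfc1 lies on chromosome 5 of GRCm38 (65261850 to 65335670), and its fall was -0.66 on the log2 scale, with a standard error of 0.109 (limma adjusted p = 0.00692).

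Among the small subunits, Rfc5 had 0.827, 0.703 and 0.825 FPKM with anti–VEGF-B against 1.32, 2.26 and 1.32 with IgG. IgG replicate 2 stood above the other IgG libraries (log2 fold change -0.54, adjusted p = 0.0239). Rfc3 and Rfc2 had log2 fold changes of -0.24 (adjusted p = 0.0872) and -0.025 (adjusted p = 0.896). Rfc4 was at 112% of its IgG mean (log2 fold change 0.15, adjusted p = 0.252), and after median centring it was called higher (0.35, adjusted p = 0.0370). Dscc1, of the alternative loader that acts in sister chromatid cohesion, was at 0.344 FPKM with IgG and was not called (adjusted p = 0.113).

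Replication protein A covers single-stranded DNA at the fork. Its smallest subunit gene, Rpa3, had 2.57, 2.09 and 2.51 FPKM with anti–VEGF-B against 4.01, 5.87 and 3.67 with IgG, and again IgG replicate 2 was the highest (log2 fold change -0.69 with a standard error of 0.151, limma adjusted p = 0.0136). Rpa1, the large subunit that binds DNA, had 4.37, 4.49 and 3.96 against 5.73, 7.14 and 6.10 FPKM (log2 fold change -0.47, adjusted p = 0.0145). Rpa2 was at 82.7% of its IgG mean and was not called (adjusted p = 0.155). Rpa1 was not called without anti–VEGF-B replicate 3 (0.0598), Rfc5 without any one anti–VEGF-B library (0.0535 to 0.0665) or under the 3 scalings (0.0617 to 0.0909), and Pcna in 5 of the 6 fits without a library (0.0748 to 0.110, all but that without IgG replicate 3). After median centring the log2 fold change of Pcna was -0.066 (adjusted p = 0.578), and after quantile normalization -0.23 (0.0622).

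Fen1 and Lig1, which trim and seal the short Okazaki fragments of the lagging strand, both fell. Fen1 (chromosome 19 of GRCm38, 10199132 to 10204169) had 1.15, 0.829 and 1.56 FPKM with anti–VEGF-B against 3.38, 3.89 and 2.50 with IgG. Its fall was the largest on the log2 scale among the members tested, with 36.2% of the IgG mean left (log2 fold change -0.97 with a standard error of 0.160, limma adjusted p = 0.00699). Lig1, the DNA ligase of replication, had 4.08, 4.26 and 4.06 against 5.96, 6.86 and 5.66 FPKM, with tightly grouped anti–VEGF-B values (log2 fold change -0.48, adjusted p = 0.0119). Both were called in all 6 fits without a library (adjusted p at most 0.0226 for Fen1 and 0.0482 for Lig1). Dna2, a nuclease for long flaps, had means of 0.451 under IgG and 0.335 FPKM under anti–VEGF-B and was not called (adjusted p = 0.247).

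Of the genes that protect stalled forks, Clspn had the lowest share of the IgG level of any member. Claspin passes the signal of the checkpoint kinase ATR on to CHK1. Clspn (chromosome 4 of GRCm38, 126556935 to 126593903) had 0.0703, 0.139 and 0.0527 FPKM with anti–VEGF-B against 0.529, 0.831 and 0.585 with IgG. All libraries were low and the groups lay far apart, with 13.5% of the IgG mean left. In the fit with no filter its log2 fold change was -0.60 with a standard error of 0.0876 (limma adjusted p = 0.00833), a value held small by the pseudocount of 1. It was called under the 3 scalings (adjusted p from 0.0100 to 0.0121) and without each library in turn (0.0145 to 0.0386). The partners Timeless and Tipin differed from it. Timeless had 54.5% of its IgG mean (adjusted p = 0.0514, with no filter) and passed without IgG replicate 1 (0.0378), while Tipin had 96.8% (adjusted p = 0.758).

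Genes that rebuild chromatin and its methylation behind the fork included some of the largest falls. Uhrf1 binds hemimethylated DNA and recruits Dnmt1, the methyltransferase that copies methylation onto the new strand. Uhrf1 (chromosome 17 of GRCm38, 56303321 to 56323486) had 2.34, 2.22 and 2.50 FPKM with anti–VEGF-B against 4.66, 6.32 and 3.98 with IgG. The anti–VEGF-B values lay within a narrow range under all IgG values (log2 fold change -0.82 with a standard error of 0.142, limma adjusted p = 0.00756). Dnmt1 (chromosome 9, 20907209 to 20959888) had 3.59, 4.08 and 3.12 against 6.60, 8.10 and 5.82 FPKM (log2 fold change -0.76 with a standard error of 0.131, limma adjusted p = 0.00731). Chaf1a and Chaf1b encode subunits of the chromatin assembly factor that deposits histones. Chaf1a had 0.862, 1.01 and 0.855 FPKM with anti–VEGF-B against 1.24, 2.68 and 2.08 with IgG, where IgG replicate 1 was near the anti–VEGF-B values (log2 fold change -0.62, adjusted p = 0.0256). Chaf1b, at 80.1% of its IgG mean, was not called (adjusted p = 0.338). Chaf1a did not pass in 5 of the 6 fits without a library (0.0506 to 0.0765, all but that without IgG replicate 1) or under the 3 scalings (0.0554 to 0.0804).

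The E-type cyclins, which drive entry into S phase with Cdk2, moved in opposite directions. Ccne1 fell from 2.92, 3.10 and 2.68 FPKM with IgG to 1.73, 1.99 and 1.51 with anti–VEGF-B (log2 fold change -0.51, adjusted p = 0.0123). Ccne2, the more abundant one, rose from 10.2, 8.78 and 11.8 to 15.2, 12.5 and 14.0 FPKM, the largest rise among the members (log2 fold change 0.41 with a standard error of 0.118, limma adjusted p = 0.0316). In both genes the groups did not overlap. E2f1, a transcription factor that activates many of the members, had means of 2.18 ± 0.150 and 2.17 ± 0.0624 FPKM under anti–VEGF-B and IgG (log2 fold change 0.0060, adjusted p = 0.967). Ccne1 was not called without anti–VEGF-B replicate 3 (0.0521), after quantile normalization (0.0611) or cyclic loess (0.0581). Ccne2 passed under the 3 scalings (0.0160 to 0.0288), but not without anti–VEGF-B replicates 1 or 3 or IgG replicates 1 or 2 (0.0611 to 0.0969).

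A ratio of 2 genes within a library does not change with a scaling that multiplies the FPKM of a library by 1 factor. Such ratios were taken for 5 pairs of members with related roles, chosen after their values were seen. The FPKM of Cdt1 per FPKM of its inhibitor Gmnn was 0.215, 0.377 and 0.233 with anti–VEGF-B and 0.638, 0.461 and 0.480 with IgG. Mcm3 per Mcm6 was 0.245, 0.182 and 0.175 against 0.290, 0.322 and 0.341. Both ratios were lower in every anti–VEGF-B library. Prim2 per Prim1 was 3.42, 3.55 and 4.15 against 2.04, 2.36 and 2.43, and Rfc4 per Rfc1 was 1.93, 1.66 and 2.03 against 1.21, 0.842 and 0.918. Ccne2 per Ccne1 was 8.80, 6.29 and 9.23 against 3.48, 2.83 and 4.41. These 3 ratios were higher in every anti–VEGF-B library. Since the pairs were picked for their values, the separation is a description with no test.

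**Figure D5:**
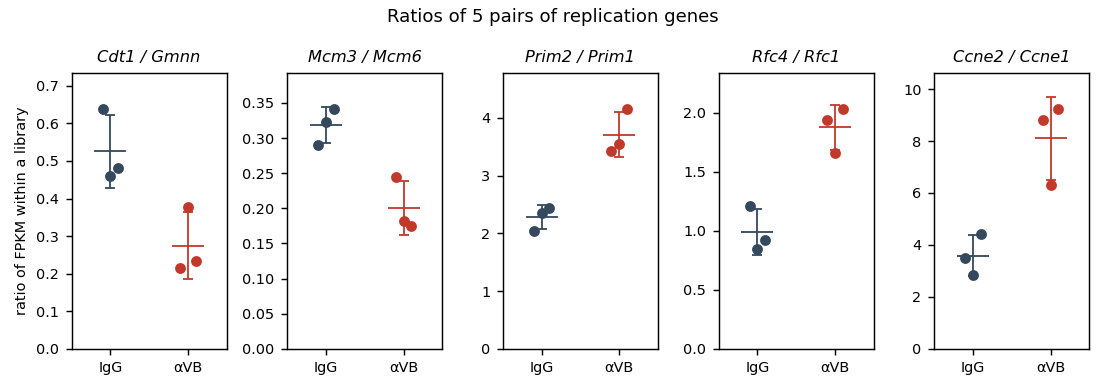
Ratio of the FPKM of 2 replication genes within each library (y axis from 0) for 5 pairs, in the IgG (dark) and anti–VEGF-B (red) libraries, with the mean of each group and its SD (n = 3). Cdt1 per Gmnn and Mcm3 per Mcm6 are lower with anti–VEGF-B (means of 0.275 against 0.526 and 0.201 against 0.318), and the other 3 ratios are higher, with no overlap.

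Further genes of the pathway, from lists written by hand, were set beside the members. These lists, and that of mitosis below, were chosen with earlier results of these data known, so their shares are descriptions. Of 15 further licensing and firing genes tested, 6 were lower (40.0%, against 23.8% of all tested genes) and 1 higher. Of all tested genes, 9.15% to 10.6% were lower under the 3 scalings, and 852 to 1365 of the 8816 were higher. Under each of these scalings 3 of the 15 licensing and firing genes were lower and 1 higher. The largest falls were in Cul4a (log2 fold change -0.69), a scaffold of the ligase that marks Cdt1 for destruction, Topbp1 (-0.56), Ccna2 (-0.56), the S phase cyclin, and Donson (-0.53). Cul4b, the paralog of Cul4a, rose (0.29, adjusted p = 0.0387). Of 13 further genes of the fork, the strands and the loaders, 4 were lower (30.8%, a share near that of all tested genes), among them Chtf8 (-0.93) and Top2a (-0.48), and 1 was higher, the small polymerase delta subunit gene Pold4 (0.25, adjusted p = 0.0489), which did not pass after quantile normalization (0.0636) or cyclic loess (0.0965). Under each of the scalings 1 gene of this list, Chtf8, was lower. Pole4, not called without such a scaling (limma adjusted p = 0.0506), was higher under each of them (adjusted p from 0.0134 to 0.0264). After median centring Pold4 was higher too (0.0143). Among 6 genes of the S phase checkpoint tested, limma called 0, and 1 had an unadjusted p under 0.05, Chek1 (-0.30, adjusted p = 0.0688). With no filter on level, Cdc25a, the phosphatase gene of this list with a mean under 1 FPKM, was called lower (-0.53, adjusted p = 0.0136). The medians of these 3 lists (-0.18, -0.14 and -0.13) were above 0 after median centring and after quantile normalization.

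Genes that supply the fork with building blocks were a further group. Of 8 genes of deoxynucleotide supply, 4 were lower (50.0%, against 23.8% of all tested genes) and 0 higher, with Rrm2, a ribonucleotide reductase subunit gene, at -0.76 (adjusted p = 0.0191). Samhd1, which breaks deoxynucleotides down, fell too (-0.64, adjusted p = 0.00875). Of 10 genes of histone chaperones and histone supply, 5 were lower (50.0%) and 0 higher, led by Rbbp7 (-0.61) and Supt16 (-0.52). Of 9 genes of the E2F family and the pocket proteins that restrain it, 5 were lower (55.6%) and 0 higher, among them the E2F partner gene Tfdp1 (-0.69), the pocket protein genes Rbl2 (-0.61) and Rbl1 (-0.61), and E2f2 (-0.47). Under the 3 scalings 9.15% to 10.6% of all tested genes were lower, and 852 to 1365 of the 8816 were higher. From the lists, 2 to 3 genes of supply, 2 of the histone list and 3 of the E2F list were lower under these scalings. Dck of the supply list was higher under each of them (limma adjusted p from 0.0170 to 0.0324). Ssrp1 of the histone list was higher after median centring (0.0365). The calls of Topbp1, Chtf8, Samhd1, Tfdp1 and Rbl2 held under the 3 scalings and without each library in turn, which those of the other genes named from these lists did not.

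Genes of mitosis, the later step of division, were set beside the members for comparison. Of 20 tested, 12 were lower (60.0%, against 23.8% of all tested genes) and 1 higher, with a median log2 fold change of -0.39, where the replication genes had -0.35. Under the 3 scalings 9.15% to 10.6% of all tested genes were lower, and 852 to 1365 of the 8816 were higher. Of the 20 mitosis genes, 4 to 7 were lower and 1 higher under these scalings. After median centring the median was -0.19 for the mitosis genes and -0.15 for the replication genes. Mki67, a marker of cycling cells, fell from 7.69 to 2.09 FPKM on average (log2 fold change -1.48, limma adjusted p = 0.00279), a larger fall than that of any replication gene tested. Cdc20 (-0.64), Kif11 (-0.64) and Ndc80 (-0.63) were the next largest falls, and the centromeric histone gene Cenpa rose (0.65, adjusted p = 0.0198). The calls of Mki67, Cdc20 and Kif11 held under the 3 scalings and without each library. Whether mitosis and replication genes differed was not tested.

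Across the 54 members, 16 overlap another protein-coding or lncRNA gene of RefSeq (GRCm38.p6), among them Cdc45, Mcm7, Lig1, Rfc5, Chaf1a, Orc1, Rfc4 and Ccne2. The libraries were stranded, but whether the counting used strand is not stated, so reads of such neighbours could have been counted with these genes.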

How the data were processed

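RNA-Seq was made from 3 anti–VEGF-B and 3 IgG libraries, grouped by their titles. Per the methods, the authors aligned stranded reads to GRCm38 with hisat2 and quantified them with StringTie and Ballgown. The deposited table is called raw data, yet it holds fractional values, taken here as FPKM, and no count model was run. Depth is therefore unknown.

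A filter on the mean over the 6 libraries (1 FPKM) left 8816 genes, whose log2(FPKM + 1) values were fitted in limma 3.58.1 (R 4.3.3, empirical Bayes with trend, no covariate), with Benjamini-Hochberg adjustment over these genes. Adjusted p values of members under 1 FPKM come from the same fit of all 10995 genes. Values in every library are given for the 20 called members with the largest changes and the leading member of each role. Those of Mcm6, Prim2 and of the members in ratios were added after seeing them, as were the alternatives for members under the filter. The members and lists were chosen with earlier results of these data known. Members were matched to the RefSeq gene table by symbol (54 of 54).

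The alternatives tried were other scalings (quantile, median, cyclic loess), a pseudocount of 0.1, other filters (none, 5 FPKM), no moderation, calls at an unadjusted p under 0.05 and a log2 change beyond 0.5 either way, a replicate block, and fits without 1 library.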

Additional observations from a re-analysis of the deposited data

How the results depend on the processing

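The median log2 fold change of the tested members (-0.35) was -0.18 with quantile normalization, -0.15 with median centring and -0.18 with cyclic loess. The number of members called lower (23) was 12, 15 and 13 under these scalings, and 0 with no moderation of the variance. With a filter at 5 FPKM it was 10 of the 20 that passed (50%, against 20.1% of all genes that passed). These were each of the 10 among the 20 that had been called lower. In the fits without 1 library the number of members called lower ran from 11 (without anti–VEGF-B replicate 3) to 22. The share of all tested genes called lower ran from 7.88% to 23.5% in these fits. The number called higher (2) was 0 with no moderation, 0 at the unadjusted limits (p under 0.05 and a log2 change beyond 0.5), and 0 to 1 without 1 library. After median centring it was 3, with Rfc4 added, while the number called higher among all 8816 tested genes went from 429 to 1365. Among all genes, 2528 were called, against 1331 with the filter at 5 FPKM, 12 with no moderation, 1121 at the unadjusted limits and 859 to 2467 without 1 library. Calls were lost by 14 of the 25 called members without anti–VEGF-B replicate 3 and by 3 to 8 without each of the others. Without IgG replicate 3, which had the highest sum of macrophage markers, 22 members were called lower. The causes of these changes were not tested.

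Deviations from the group means correlated by -0.030, 0.11 and 0.089 between libraries of the same number. Between libraries of different numbers the correlations ran from -0.175 to 0.0997. With so few libraries, these values cannot tell whether the numbers pair the libraries. With the replicate block 22 members were called lower (50%, against 23.9% of all tested genes) and 2 higher. Of all 8816 tested genes, 469 were called higher in that fit. The number of reads per library, and so the precision of the low values of Clspn, Mcm10 and other members under 1 FPKM, is unknown.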
